A study of Mus musculus with 2 samples.

Results

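The sites described here are CCAGG and CCTGG positions on chromosomes 1 to 19 of mouse F9 cells that carried methylRAD reads after differentiation and were not listed before it. A site was a member when its count was 20 or more in the differentiated library, when it was absent from the undifferentiated table, and when it lay more than 100 bp but at most 10000 bp from the nearest CCGG position listed in either table. There were 3964 such sites among 368515 CCAGG and CCTGG sites listed in that distance range in either library, and among 1370254 sites of all kinds in the series. The reverse set, with 20 or more counts in the undifferentiated library and no entry in the differentiated table, held 712 sites. A further group, used as a reference, held the 25683 sites of the same distance range that were listed in both libraries with 20 or more counts in either.

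F9 is an established mouse embryonal carcinoma line, a tumour-derived model of pluripotent cells. The series holds 2 libraries, 1 from undifferentiated F9 cells kept on gelatin-coated dishes and 1 from F9 cells at day 4 of differentiation, which was started with 1 µM retinoic acid in low-attachment dishes. The library name of both samples also holds the word untreated, which the labels do not explain, so the treatment is taken from the growth protocol and the state from the cell state label. No genetic change is named for either library. There are no replicates, so the values compare 2 libraries, no difference has a replicate check, and no test between the cell states was possible. The tables hold no expression values, so the cell state could not be checked against marker genes.

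MethylRAD uses FspEI, an enzyme that recognises a methylated cytosine preceded by another cytosine and cuts a short distance away, so that a short fragment is released around the site and sequenced. CCGG sites report methylation of a CpG. CCAGG and CCTGG are the same double-stranded sequence read from either strand, and their inner cytosine is followed by A or T, so they report methylation outside CpG. In mammals such methylation is laid down by the de novo enzymes DNMT3A and DNMT3B. It is not copied at replication by the maintenance enzyme DNMT1 in the way CpG methylation is, and it is best known from pluripotent cells, oocytes and neurons.

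To show what the motif looks like in its surroundings, the new sites that fell in annotated promoters are printed first. RefSeq promoter windows, 300 bases that end shortly after a gene's start, were the only stretches whose sequence could be read, on GRCm38.p6. Each line gives the plus strand, 5′ to 3′, as the motif in capitals with 12 bases on each side in lower case. The 6 shown are the new sites with the highest counts among the 38 whose surroundings lay wholly within such a window.
Gm30933, chr9:30426999-30427027: ggctccgatccaCCAGGccgctctcccag
Ifit1bl1, chr19:34602177-34602205: ctccctaagcacCCAGGagctgtctgtcc
Hif1a, chr12:73907803-73907831: gctggggtggggCCTGGccgcctgcgtcc
Tigar, chr6:127109645-127109673: gagaagccccgcCCAGGccagtggcgctt
Crebrf, chr17:26715578-26715606: cctcgcgattggCCTGGggcggcgggccc
Ddah2, chr17:35058934-35058962: gatcagggtgggCCTGGacactgctctgg

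All 6 were unlisted in the undifferentiated library. Their differentiated counts were 29 at Gm30933, 28 at Ifit1bl1, 27 at Hif1a and 26 at each of the other 3, with the motif 37 to 225 bp before the annotated start. The nearest CCGG went from unlisted to 6 counts beside the Gm30933 site, from 29 to 14 beside Tigar and from 47 to 13 beside Crebrf. Beside Ifit1bl1, Hif1a and Ddah2 it had 8, 12 and 8 counts before differentiation and was unlisted after it. Over all 38 sites the nearest CCGG had fewer reads after differentiation at 20, more at 17 and as many at 1, so no common direction was seen. Hif1a encodes the oxygen-regulated subunit of hypoxia-inducible factor, and Tigar a phosphatase that restrains glycolysis. The reverse set had 3 sites in such windows, and 2 are shown for comparison, the one with the highest count and 1 of 2 that tie at 20 counts.
4921513I03Rik, chr10:120765499-120765527: tcctctccttttCCTGGtccgctgagatg
Gm50596, chr2:166703055-166703083: agtctatgacacCCTGGcctcctccgccc

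These had 27 and 20 counts in the undifferentiated library and were unlisted in the differentiated one. Of the 31396 autosomal promoter windows of 300 bases, 70.7% hold CCAGG or CCTGG, which is the same search on both strands, so the presence of the motif in a window is common. Of the 38 new sites with readable surroundings, 25 had a CpG within the 29 printed bases (65.8%, exact 95% interval 48.6% to 80.4%) and 23 had CCG or CGG. Of the sites listed in both libraries, 135 had readable surroundings, and of these 106 had a CpG (78.5%, 70.6% to 85.1%) and 98 had CCG or CGG. The 2 intervals overlapped. The inner cytosine of CCG, when methylated, is itself a target of the enzyme, and the part of such positions in the counts was not tested.

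The undifferentiated library held 20550450 counts and the differentiated library 21291239. CCAGG and CCTGG sites took 3862862 and 5585803 of these, so the number of reads at such sites differed between the libraries. The cause of this difference was not tested, as each state has 1 library. Sites are listed only with 5 or more counts, so a site absent from a table had between 0 and 4 counts there and cannot be read as unmethylated. Levels are given per CCGG count of the library on chromosomes 1 to 19. On that scale a new site with 20 counts was at least 5.31-fold higher in the differentiated library, taking 4 counts for the unlisted value, and a site of the reverse set with 20 counts was at least 4.71-fold lower.

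The members were selected on their counts in the 2 libraries, so these counts are given as a description. New sites had a median of 23 counts in the differentiated library, with a lower quartile of 21, an upper quartile of 27 and a highest count of 68. In the reverse set the median undifferentiated count was 22 and the highest 72. New sites thus lay close to the threshold, with 2464 (62.2%) at 20 to 24 counts and 96 at 40 or more. Just inside the threshold, 708 new sites had exactly 20 counts. Just outside it, 925 sites had 19 counts and were likewise unlisted in the undifferentiated library, and 1168 sites with 20 or more counts in the differentiated library had 5 counts in the undifferentiated one. At the distance limits, 52 new sites were at most 110 bp from a CCGG and 58 otherwise matching sites were 91 to 100 bp away, and the farthest new site was 9865 bp away while the nearest beyond the limit was 10006 bp away. New sites were split evenly between the strand forms, 1967 CCAGG and 1997 CCTGG, and 21 of them had an alignment type other than a full match.

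New sites made up 1.08% of the sites in the distance range and the reverse set 0.193%, values that the rule itself fixes. New sites outnumbered the reverse set 5.57 to 1. All reads at CCAGG and CCTGG sites on these chromosomes were likewise more numerous in the differentiated library, by 1.44 times. With the differentiated minimum raised by that factor, to 29 counts, 719 new sites remained beside the 712 of the reverse set, a ratio of 1.01. When sites of the reverse set were also allowed up to 5 counts in the differentiated library, the scaled counterpart of 4 counts, the reverse set grew to 943 and the ratio was 0.762. The excess of new sites was therefore not seen with thresholds scaled by these totals.

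The 20 new sites with the highest counts had 50 to 68 counts and formed 16 loci when sites at most 32 bp apart, which can share a read, were joined. Of these 20, 16 lay inside an annotated gene. The highest, 68 counts at chromosome 7, 36095687 to 36095691, was a CCAGG in the long noncoding RNA gene Gm38991. Its nearest CCGG, 801 bp away, had 11 counts in the undifferentiated library and was unlisted in the differentiated one, whereas the summed CCGG count within 10 kb went from 203 to 270 over 13 sites. The next, a CCTGG with 65 counts at chromosome 12, 112275814 to 112275818, lay in the noncoding gene Gm36894, where the 30 CCGG sites within 10 kb went from 1135 counts before differentiation to 916 after it. These sites thus gained reads beside CCGG sites that went either way.

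Atxn7l1, related to a subunit of the SAGA transcription coactivator, held a CCTGG with 62 counts on chromosome 12, 33334781 to 33334785. CCGG sites around it went from 304 to 247 counts. A CCAGG with 58 counts at chromosome 9, 9239276 to 9239280, lay 249 bp from the start of Arhgap42, which encodes a GTPase-activating protein, and inside the noncoding gene Gm16833. It had only 2 CCGG sites within 10 kb, with 30 and 5 counts. Among the 20 sites this place had the lowest CCGG log2 ratio, -1.83, which rests on very few reads.

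Further sites of the 20 lay in genes for membrane proteins. Scn8a, a voltage-gated sodium channel gene, held a CCTGG with 56 counts on chromosome 15, 101037446 to 101037450, where the CCGG counts within 10 kb were 537 and 526. Tmtc1, which encodes a protein O-mannosyltransferase, held a CCTGG with 56 counts on chromosome 6, 148251045 to 148251049, with CCGG counts of 355 and 336. In neither gene did the summed CCGG count differ by as much as 1.5-fold. The nearest CCGG alone went from 38 counts to unlisted beside the Scn8a site and from 37 to 18 beside the Tmtc1 site.

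Sites close enough to share reads had equal or nearly equal counts among the 20. In Zfand3, a zinc finger protein gene, 2 CCAGG sites 14 bp apart on chromosome 17, 30209589 and 30209603, each had 56 counts. In Sdha, the gene of the catalytic subunit of succinate dehydrogenase, 3 sites spanning 16 bp on chromosome 13, starting at 74327781, had 51, 51 and 52 counts. Between genes on chromosome 3, 2 CCTGG sites at 21739262 and 21739267 had 55 counts each. Each of these groups is better read as 1 locus than as separate sites.

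Sox5, which encodes a transcription factor of the SoxD group, held a CCAGG with 51 counts on chromosome 6, 144601194 to 144601198. Mirg, a noncoding RNA gene of the imprinted Dlk1-Meg3 region, held a CCTGG with 53 counts on chromosome 12, 109748928 to 109748932. Around the Mirg site 10 CCGG sites went from 354 to 185 counts, a log2 ratio of -0.79, while around the Sox5 site 15 CCGG sites went from 437 to 477. With sites at most 32 bp apart joined, the CCGG log2 ratio within 10 kb was above 0 at 9 of the 16 loci and below 0 at 7, with a median of 0.038. The ratios here are relative to the CCGG totals, and their direction rests on that scaling. Relative to the median ratio of CCGG sites with 10 or more counts in both libraries, 5 of the 16 loci were above 0, and relative to the divisors behind the deposited RPM values 4 were.

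**Figure D1:**
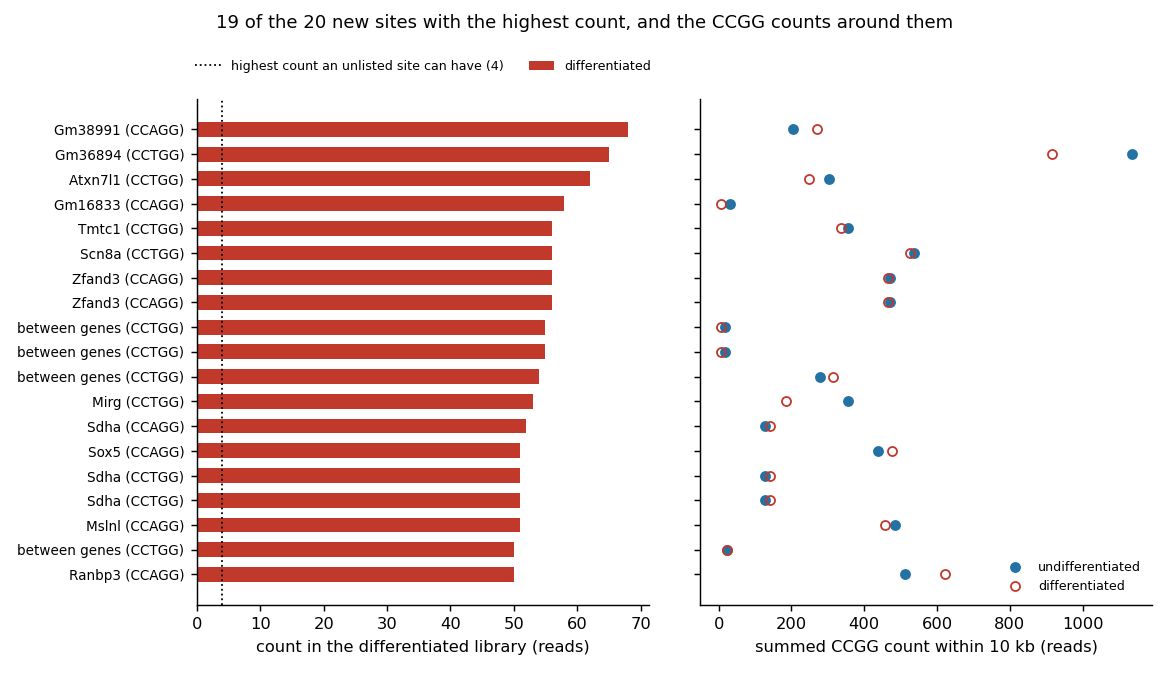
New sites with the highest count, 19 of the 20, named by the gene that holds them and by motif. Left, the count in the differentiated library in reads, with a dotted line at 4, the highest count the undifferentiated library can have at these unlisted sites. Right, the summed count of the CCGG sites within 10 kb but not within 100 bp in the undifferentiated (filled) and differentiated (open) library. The counts run from 50 to 68, whereas the CCGG sums of the 2 libraries lie close together at most sites.

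The highest sites of the reverse set were of the same kind. A CCAGG between genes on chromosome 12, 106993135 to 106993139, had 72 counts in the undifferentiated library and none listed in the differentiated one. Its CCGG sites within 10 kb had 586 and 665 counts. A CCTGG in Ttc8, a gene of the BBSome complex of primary cilia, had 55 counts on chromosome 12, 98960782 to 98960786, with surrounding CCGG counts of 402 and 511. A CCAGG between genes on chromosome 8, 31763103 to 31763107, had 56 counts, and its 2 CCGG sites went from 46 to 6 counts, a log2 ratio of -2.11. In A4gnt, a glycosyltransferase gene, a CCAGG had 54 counts, and CCGG sites around it went from 164 to 142. Of the 5 highest, 3 had a CCGG log2 ratio above 0 and 2 below, and under each of the other 2 scalings 2 were above and 3 below, so their surroundings went either way.

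New sites were found on every autosome, from 107 on chromosome 19 to 325 on chromosome 8. Per 1000 sites listed in the distance range, there were 9.10 new sites on chromosome 2 and 13.5 on chromosome 12, with a median over chromosomes of 10.9. The reverse set ranged from 1.40 per 1000 on chromosome 6 to 2.43 on chromosome 8. Chromosomes 12 and 8 also had the most sites with 20 or more counts in the differentiated library, 98.3 and 91.2 per 1000 against a median of 64.6. Taken as a share of those strong sites, new sites were in fact least frequent on chromosomes 8 (12.7%, exact 95% interval 11.5% to 14.1%) and 12 (13.7%, 12.2% to 15.3%).

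**Figure D2:**
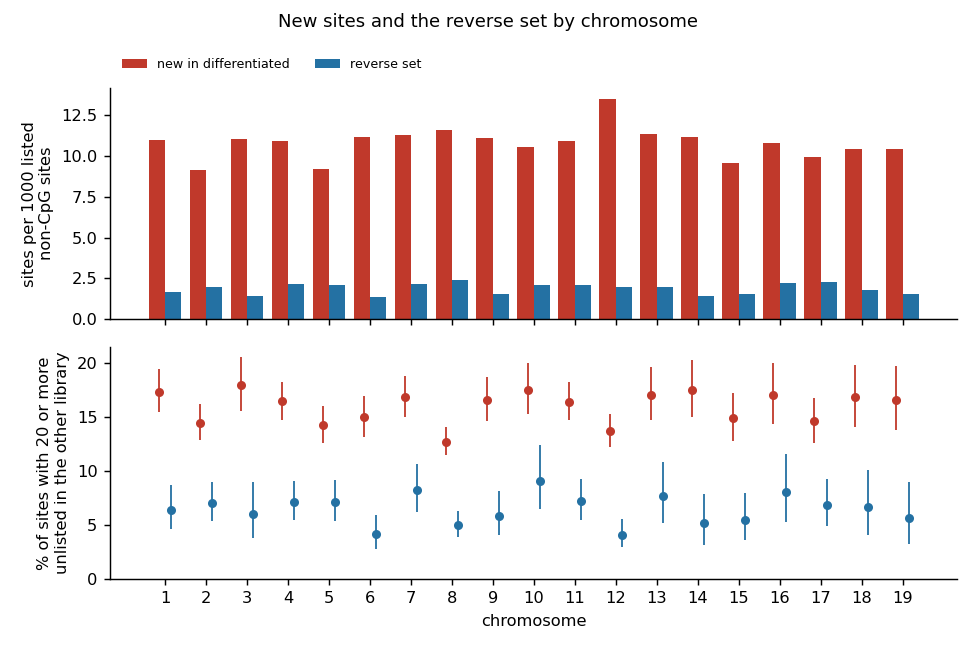
New sites (red) and the reverse set (blue) by chromosome. Top, sites per 1000 CCAGG and CCTGG sites listed in the distance range. Bottom, the share of sites with 20 or more counts in a library that were unlisted in the other library, with exact 95% intervals that cover counting error only. Chromosome 12 has the most new sites per 1000, 13.5, while its share of strong sites that were new, 13.7%, is among the lowest.

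Across the distance range, 3964 of the 25375 sites with 20 or more counts in the differentiated library were new (15.6%, exact 95% interval 15.2% to 16.1%). In the other direction 712 of 11353 strong undifferentiated sites were unlisted in the differentiated library (6.27%, 5.83% to 6.73%). These shares rest on the counts the rule used and are a description. The share that was new was 14.9% (14.3% to 15.4%) at up to 1000 bp from a CCGG. It was 16.9% (16.1% to 17.8%) beyond that up to 5000 bp and 19.6% (16.6% to 22.9%) beyond 5000 bp. The reverse share was 6.35% (5.83% to 6.91%), 6.26% (5.44% to 7.15%) and 3.59% (1.56% to 6.95%, 8 sites) in the same classes. For new sites the intervals of the 2 farther classes overlapped, and for the reverse set all of them did.

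New sites lay a median of 649.5 bp from the nearest listed CCGG, compared with 547 bp in the reverse set, 589 bp for sites listed in both libraries and 649 bp for all sites of the distance range. They had a median of 11 listed CCGG sites within 10 kb, and the reverse set had 13. In both respects new sites were close to the typical CCAGG or CCTGG site of the range.

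The same held for their place in genes. Inside annotated genes lay 2603 new sites (65.7%, exact 95% interval 64.2% to 67.1%), beside 65.6% of all sites in the range, 68.6% of sites listed in both libraries (68.1% to 69.2%) and 70.5% of the reverse set (67.0% to 73.8%). Protein-coding genes held 57.3% of the new sites. The median distance to an annotated start was 22.7 kb for new sites and 19.1 kb for the reverse set, leaving out chromosome 18, for which start sites were not used here. Exons and introns were not told apart, because the gene table used gives only gene ends.

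Close to starts, new sites were somewhat more frequent than strong sites present in both states. Within 1 kb of a start lay 180 of 3847 new sites (4.68%, exact 95% interval 4.03% to 5.39%), compared with 3.31% of sites listed in both libraries (3.09% to 3.54%), 3.82% of all sites in the range and 4.34% of the reverse set (2.94% to 6.13%). In the promoter windows themselves lay 41 new sites (1.07%, 0.766% to 1.44%) and 3 sites of the reverse set (0.434%, 0.089% to 1.26%). The share was 0.576% for sites listed in both libraries (0.486% to 0.678%) and 0.690% for all sites in the range (0.663% to 0.718%). The interval of the new sites lay above that of the sites listed in both libraries and overlapped that of the reverse set. Of the new sites with at least 29 counts, 2 of 695 lay in a promoter window (0.288%, 0.035% to 1.04%) and 30 within 1 kb of a start (4.32%, 2.93% to 6.11%). The higher promoter share was therefore not seen at that minimum, where the value was below that of sites listed in both libraries and the interval included it.

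**Figure D3:**
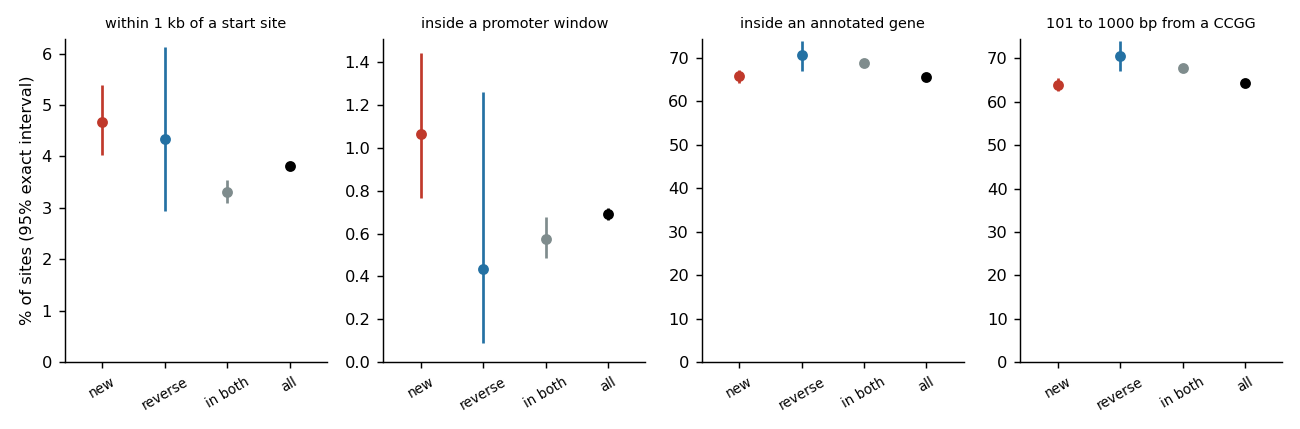
Share of sites in 4 kinds of place for new sites, the reverse set, sites listed in both libraries with 20 or more counts in either, and all sites of the distance range, with exact 95% intervals that cover counting error only. Within 1 kb of a start lay 4.68% of new sites and 3.31% of sites listed in both libraries, whereas shares inside genes were 65.7% and 68.6%.

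The new sites touched 2168 genes, 1737 of them protein-coding, out of 26371 genes with any listed site in the distance range. Most genes held few: 110 held 3 or more and 11 held 5 or more. The median length of protein-coding genes with a new site was 74.7 kb, within 1 kb of that of genes with a site of the reverse set. Over all protein-coding genes with a site in the range it was 24.8 kb, a contrast to be read with the fact that longer genes hold more such sites. Both kinds of site were present in 129 genes, which are 26.0% of the 497 genes with a site of the reverse set and 5.95% of those with a new site. Of all genes with a site in the range, 8.22% held a new site, and gene length was not matched in these shares.

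Zfhx3, Cux1 and Atp2b2 held 7 new sites each, the most of any gene. With sites at most 32 bp apart joined, Zfhx3 held 7 loci, and Cux1, Atp2b2, Csmd2 and Agap1 held 6 each. Zfhx3, a large homeodomain and zinc finger transcription factor gene of 682.3 kb on chromosome 8, had new sites with 22 to 48 counts among 291 sites in the range. Cux1, a homeodomain transcription factor gene of 319.5 kb on chromosome 5, had new sites with 22 to 36 counts among 88. Atp2b2, which encodes a plasma membrane calcium pump, had new sites with 20 to 29 counts among 202. Zfhx3, Cux1 and Atp2b2 held no site of the reverse set, which makes up only 0.193% of sites in the range.

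CCGG sites inside these genes had slightly higher levels after differentiation, with log2 ratios of 0.14 in Zfhx3 (543 sites), 0.23 in Cux1 (154 sites) and 0.19 in Atp2b2 (226 sites). The RNA-binding protein gene Rbms3 and Csmd2, which encodes a large transmembrane protein with CUB and sushi domains, held 6 new sites each, with CCGG log2 ratios of 0.22 and 0.24. Nav2 and Agap1 also held 6, with ratios of 0.013 (95% interval -0.027 to 0.053) and 0.043 (-0.002 to 0.088), so CCGG levels were not raised in all genes with many new sites. With another CCGG scaling, by the median ratio of sites with 10 or more counts in both libraries, every CCGG ratio falls by 0.16, which brings the ratios in Zfhx3, Nav2 and Agap1 below 0 and leaves those in the other 4 above it. Under the divisors behind the deposited RPM values they fall by 0.23, to -0.037 in Atp2b2, -0.002 in Rbms3, 0.007 in Cux1 and 0.013 in Csmd2, so the direction in these genes rests on the scaling.

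Genes of the pluripotency network, the endoderm programme, retinoic acid signalling and the methylation machinery were searched with 10 kb on each side, in lists chosen with earlier results of these data known. New sites made up 2 of 226 sites in the range at the 18 pluripotency genes (0.885%), 6 of 534 at the 16 endoderm genes (1.12%), 3 of 346 at the 15 retinoic acid genes (0.867%) and 3 of 253 at the 12 methylation genes (1.19%). These shares are near the 1.08% of all sites in the range. No site of the reverse set lay at any of the 61 genes, and the reverse set makes up only 0.193% of all sites in the range.

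Both pluripotency sites were in Esrrb, which encodes an orphan nuclear receptor of the pluripotency network. They were CCTGG sites with 26 counts each on chromosome 12, at 86401435 and 86514531. The summed CCGG count within 10 kb of the first went from 454 to 368 and that of the second from 514 to 620. CCGG sites beside the 2 new sites of this gene therefore went in opposite directions.

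Of the endoderm genes, Col4a2, Lamb1 and Lama1, which encode basement membrane proteins made by parietal endoderm, held new sites in their gene bodies. Col4a2 had 2 on chromosome 8, with 42 counts at 11346949 and 32 at 11347754, and CCGG counts around the first of 419 and 430. Lamb1 had 1 with 27 counts, and Lama1 had 1 with 23 counts and CCGG counts of 338 and 469. New sites within 10 kb of a gene were found at Hnf4a, with 38 counts, and Gata6, with 20 counts, both genes of transcription factors of endoderm. The share over the whole list, 1.12%, was close to that of the distance range.

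Among the methylation genes, Uhrf1, whose product guides DNMT1 to hemimethylated CpG, held a CCAGG with 49 counts on chromosome 17, at 56314306. CCGG counts within 10 kb of it were 359 and 413. Dnmt1 held a new site with 20 counts, where the CCGG sum went from 190 to 102. A new site with 21 counts lay within 10 kb of Dnmt3b, where the CCGG sum went from 217 to 103 over 6 sites. Of the retinoic acid genes, Cyp26b1, a retinoic acid hydroxylase gene, held a site with 20 counts, Stra6, a retinol transporter gene, held a site with 24 counts, and a site with 29 counts lay within 10 kb of the receptor gene Rxrb.

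New sites were mostly isolated. Of the 3964, 477 (exact 95% interval 11.0% to 13.1%) had another new site within 32 bp, and they formed 232 groups, of which 163 had the same count at every site. Joining such groups left 3719 loci. Of these loci 289 (7.77%, 6.93% to 8.68%) had another new locus within 10 kb and 43.6% had another within 100 kb. No run with gaps of at most 10 kb held more than 3 loci, or 4 sites.

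The longest runs by sites lay on chromosomes 12 and 4. A run between genes on chromosome 12, 99077642 to 99086740, held 4 sites in 2 loci with 27 to 40 counts. Its CCGG sites within 10 kb went from 1102 to 875 counts. Runs of 4 sites in 2 loci also lay in Ppp1r13b, whose product binds p53, on chromosome 12 and in the noncoding gene Gm36134 on chromosome 4, with CCGG log2 ratios of -0.15 and -0.021. Counted by loci, the longest runs held 3, and of the 6 such runs with the highest summed count 5 had a CCGG ratio above 0, from 0.004 in Rgs22 to 0.50 in Zfat. Under median-ratio scaling 4 of the 6 were above 0, and under the RPM divisors 3. CCGG sites around runs thus went either way.

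Spacing depends on the number of sites in a set, so sets of like size are the fairer comparison. The 719 new sites with 29 or more counts formed 669 loci, of which 10 (1.49%, exact 95% interval 0.719% to 2.73%) had another within 10 kb. In the reverse set 22 of 689 loci did (3.19%, 2.01% to 4.79%). Taking the 719 sites of highest count that both libraries list, 52 of 697 loci did (7.46%, 5.62% to 9.67%). At 100 kb the shares were 8.97%, 16.5% and 30.8%, with intervals that did not overlap. The lowest counts in these sets were 29, 20 and 62, so they were matched in number and not in strength. New sites were the most scattered of these 3 sets at 100 kb, while at 10 kb their interval overlapped that of the reverse set.

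**Figure D4:**
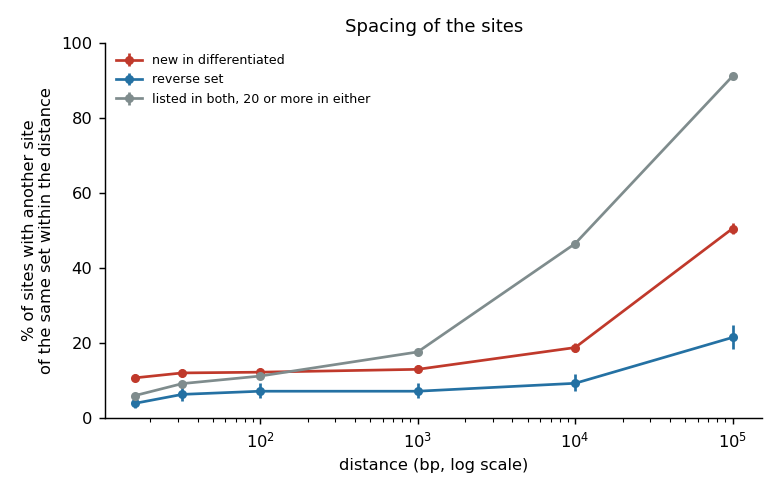
Share of sites with another site of the same set within a given distance (log axis, bp), with exact 95% intervals that cover counting error only. The sets differ in size, 3964 new sites, 712 reverse sites and 25683 sites listed in both libraries. New sites gain little between 16 bp (10.7%) and 1 kb (13.0%) and reach 50.5% at 100 kb.

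In windows of 1 Mb, 1461 of the 2404 windows with any site in the range (60.8%) held at least 1 new site and 232 held 5 or more. The window with the most, 19 new sites, was chromosome 12, 112000000 to 112999999. It also held the most sites listed in both libraries, 202, and 1360 sites of the distance range in all. The fullest window of the reverse set held 5 sites. The window fullest in new sites was thus also the fullest in sites listed in both libraries.

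CCGG sites around new sites differed little between the states. More than 100 and up to 10000 bp from any new site lay 43006 CCGG sites, each counted once, which held 975611 counts before differentiation and 990666 after it. Relative to the library totals their summed level rose by a log2 value of 0.11 (exact 95% interval 0.108 to 0.116). Around the reverse set 9249 CCGG sites were higher by 0.084 (0.075 to 0.093). Around all sites of the range the value was 0.017 and over all autosomal CCGG sites 0.016, sums in which a few positions of very high count weigh heavily. Both sets thus lay above the overall value. The difference of the 2 values was 0.028 (0.019 to 0.038), a ratio of levels near 1, although new sites and the reverse set were chosen for opposite changes.

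The direction of the ratio itself rested on the scaling. Under median-ratio scaling it was -0.043 around new sites and -0.071 around the reverse set, and under the divisors behind the deposited RPM values it was -0.11 and -0.14. The difference between the sets is by construction the same under these 3 scalings. Its sign turned with the count minimum: it was -0.11 with sites of 10 or more counts and -0.055 (-0.126 to 0.016) with sites of 40 or more.

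Taken site by site, of the CCGG sites around new sites with a summed count of 20 or more, 18.1% gained by 2-fold or more on differentiation and 18.9% lost by 2-fold or more. Around the reverse set the shares were 17.2% and 19.3%. Of all 530315 such autosomal CCGG sites, 17.6% gained and 21.3% lost by 2-fold or more. Under median-ratio scaling the shares were 14.5% and 21.6% around new sites, 13.8% and 22.5% around the reverse set and 14.3% and 24.1% of all. The share around new sites was thus near the background in the upward direction and near that of the reverse set in the downward one under both scalings.

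Between places the spread was wider than any of these differences. Around each new site separately, the summed CCGG log2 ratio within 10 kb had a median of 0.087 and an interquartile range of -0.17 to 0.30, and it was above 0 at 59.1% of new sites. Around the reverse set the median was 0.072, the interquartile range -0.18 to 0.28, and 57.7% were above 0. All sites of the range had a median of 0.078 with 58.7% above 0. Sites listed in both libraries had 0.087 with 60.6% above 0. Under median-ratio scaling the medians of new and reverse sites were -0.068 and -0.084, with 1622 of the 3964 new sites and 285 of the 712 reverse sites above 0. Under the RPM divisors the medians were -0.14 and -0.15, with 1310 and 231 above 0. CCGG levels at least 1.5-fold higher were found around 6.96% of new sites and at least 1.5-fold lower around 7.09%, or 3.71% and 11.7% under median-ratio scaling. Relative to the CCGG totals, these shares were 7.31% and 7.25% for all sites of the range and 6.68% and 5.80% for sites listed in both libraries. The new sites were thus near the background. New sites and the reverse set overlapped almost completely.

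Nearer to the sites the difference was larger. For the CCGG sites closest to them, up to 1000 bp away, the summed log2 ratio was 0.14 around new sites (exact 95% interval 0.133 to 0.157) and 0.065 around the reverse set (0.040 to 0.090). Beyond that, up to 5000 bp, it was 0.11 and 0.093, and farther out 0.11 and 0.080. A few CCGG positions with very high counts dominate sums over the larger sets, so the sums were also taken without the 1000 highest CCGG sites.

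Without them the ratio at up to 1000 bp was 0.10 around new sites (exact 95% interval 0.089 to 0.113), 0.020 around the reverse set (-0.005 to 0.045), 0.089 around sites listed in both libraries (0.084 to 0.093) and 0.060 around all sites of the range (0.058 to 0.061). The value around new sites was therefore above that of the reverse set beyond counting error, and its interval overlapped that of sites listed in both libraries. With all CCGG sites kept, ratios of single places at up to 1000 bp spread far wider. Their interquartile ranges were -0.50 to 0.66 around new sites and -0.60 to 0.53 around the reverse set. Whether the gap exceeds this spread was not tested. Around the 719 new sites with 29 or more counts it was 0.13 (0.101 to 0.161). Beyond 5000 bp the values for the 4 sets were 0.058, 0.032, 0.048 and 0.025.

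The nearest CCGG of each site was also compared. Beside new sites its median count was 17 before and 15 after differentiation, and 20 and 16 beside the reverse set. The summed log2 ratio was 0.10 beside new sites (exact 95% interval 0.089 to 0.116), 0.029 beside the reverse set (-0.003 to 0.060), 0.12 beside sites listed in both libraries (0.113 to 0.123) and 0.068 beside all sites of the range. The value beside new sites was thus above that of the reverse set and slightly below that of sites listed in both libraries, with intervals that overlapped for the latter. For single sites the interquartile ranges were -0.72 to 0.76 beside new sites and -0.91 to 0.67 beside the reverse set. The gap was not tested against this spread. The nearest CCGG was unlisted in the undifferentiated library beside 488 new sites (12.3%) and unlisted in the differentiated library beside 627 (15.8%). The same order held for the reverse set, at 8.99% and 15.6%, and for all sites of the range, at 11.4% and 15.5%. A nearest CCGG that appeared together with the new site was thus less common than one that disappeared, an order not particular to new sites.

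CCAGG and CCTGG sites around the members rose like those elsewhere. Leaving out both chosen sets, sites of the same distance range that lay more than 100 and up to 1000 bp from a new site went from 14797 to 25047 counts, with a log2 ratio of 0.50 (exact 95% interval 0.48 to 0.53). The ratio was 0.55 around the reverse set (0.49 to 0.61) and 0.48 for all 363839 such sites. Of the sites around new sites with a summed count of 20 or more, 40.3% gained and 9.03% lost by 2-fold or more. Over the whole range these shares were 39.7% and 8.68%.

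Of the 3 distance classes of other CCAGG and CCTGG sites, the intervals of the 2 sets were apart only at 33 to 100 bp. There the log2 ratio was 0.50 around new sites (511 other sites, exact 95% interval 0.44 to 0.56) and 0.17 around the reverse set (143 other sites, 0.063 to 0.28). Around sites listed in both libraries it was 0.40 (0.38 to 0.42). These intervals cover counting error only, and the gap was not tested against the spread between sites. Scaled to the CCAGG and CCTGG totals in place of the CCGG totals, the ratio for other sites 33 to 10000 bp from new sites was -0.14, and from the reverse set -0.17. On that scale it was -0.14 for all such sites, so the value around new sites was that of the class as a whole.

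**Figure D5:**
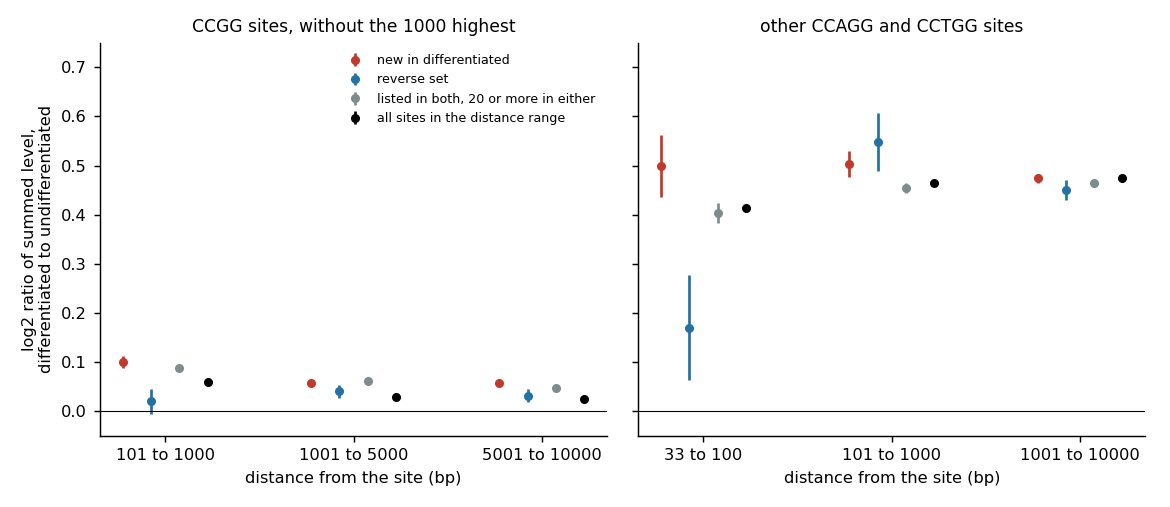
Log2 ratio of summed levels, differentiated to undifferentiated, by distance in bp from new sites, the reverse set, sites listed in both libraries and all sites of the distance range. Left, CCGG sites without the 1000 highest. Right, other CCAGG and CCTGG sites. Bars are exact 95% intervals for counting error only. CCGG values lie between 0.020 and 0.10, CCAGG and CCTGG values mostly between 0.40 and 0.55, and the reverse set separates from new sites at 33 to 100 bp (0.17 against 0.50).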

How the data were processed

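MethylRAD libraries of undifferentiated and differentiated F9 cells (1 each) were compared. Per the submitters' processing notes, the tools were FastQC 0.11.3 and Bowtie2 2.3.3 and the build GRCm38; read filters are not given in the sources used here. The deposited counts are whole numbers of reads per site, listed from 5 upwards. The column the authors headed RPM was treated as a score, since it sums to more than 1000000, and served only as an alternative scaling. Positions are the first base of the motif: of the CCGG, CCAGG and CCTGG entries inside RefSeq promoter windows (GRCm38.p6), 98.2% or more began with the stated motif there. Gene ends came from the RefSeq gene table of that assembly. Fragments outside promoter windows could not be read, so copies in the genome and the planned 32-base fragments of the named sites were not analysed here.

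Sites within 16 or 32 bp can share reads. Positions whose motif differed between the libraries were left out of CCGG levels. An unlisted CCGG or neighbouring site was given 4 counts, which enter the log2 ratios and their intervals but not the printed sums of counts. Intervals for shares are exact Clopper-Pearson intervals at 95%, and those for log2 ratios were derived from the exact interval of the differentiated share of the reads; both cover counting error only, because PCR copies are not independent molecules. No test between states was made. Named sites were the 20 highest new sites, the 5 highest of the reverse set, the 3 largest runs, the 5 genes with most new sites and members at listed genes; the promoter sites, Nav2, Agap1 and the runs counted by loci were added after seeing the data. Of the 20, 1 is counted in the summaries but not reported here by itself. Members and lists were chosen with earlier results of these data known. The selection and the sums were tested on simulated data. Alternatives covered count minimum, distance, alignment type, read sharing, scaling, unlisted sites, windows and annotation. Python 3.11.15, numpy 2.4.6, scipy 1.17.1, pandas 2.3.3 and matplotlib 3.10.9 were used.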

Additional observations from a re-analysis of the deposited data

Results flagged for a closer look

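Chromosome X lies outside the rule. By the same counts and distances it held 55 sites with 20 or more counts in the differentiated library that were unlisted in the undifferentiated one, and 6 in the reverse direction. These are 8.97 and 0.979 per 1000 listed sites of the distance range, compared with 10.8 and 1.93 on the autosomes. Of the 270 chromosome X sites with 20 or more counts in the differentiated library, 20.4% were new (exact 95% interval 15.7% to 25.7%). This share was above the 15.6% of the autosomes, but its interval began close to that value. No interval was computed for the rate per 1000, so a difference in direction between the 2 measures is not established. Chromosome X is given because it is signal in data that the comparisons do not use.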

How the results depend on the processing

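The 3964 new sites, the 712 of the reverse set and their ratio of 5.57 were 39280, 11855 and 3.31 with a minimum of 10 counts, 600, 87 and 6.90 with 30, and 96, 11 and 8.73 with 40. They were 1429, 209 and 6.84 for sites over 1000 bp from a CCGG, and 719, 712 and 1.01 with the differentiated minimum raised by the non-CpG totals. With both minimums scaled, an alternative added after seeing the data, they were 719, 943 and 0.762. A distance over 32 bp, full-match alignments, joined loci and CCGG of 10 or more counts left all 3 within 1.5 times.

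The CCGG log2 ratio around new sites, 0.11, was 0.14 with CCGG within 1 kb, 0.12 within 5 kb, 0.15 with CCGG listed in both libraries, 0.060 without the 1000 highest sites, 0.054 with a minimum of 40, 0.089 over 1000 bp from a CCGG and 0.10 without chromosomes 8 and 12 (added later). It reversed to -0.043 under median-ratio scaling, -0.11 under the divisors of the RPM values and -0.013 with a minimum of 10. The first 2 follow from the scaling, which shifts every CCGG ratio by -0.16 and -0.23, and the cause of the last was not tested. Its difference from the reverse set, 0.028, was 0.080 within 1 kb and 0.046 over 1000 bp from a CCGG, and reversed to -0.11 with a minimum of 10 and -0.055 with 40.

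The share in genes, 65.7%, was 57.3% for protein-coding genes and 58.3% with a minimum of 40. The share with another new site within 10 kb, 18.8%, was 50.5% at 100 kb, 7.77% for joined loci and 53.1% with a minimum of 10. The log2 ratio of other non-CpG sites, 0.48, was 0.50 within 1 kb and reversed to -0.14 under their own totals. That negative sign rests on the 4 counts given to unlisted sites. No new site of 40 or more counts had a readable promoter window, and fragments found once in the genome could not be run. No paired analysis was possible because each state has 1 library. Depth limits single sites, since an unlisted site may have up to 4 counts.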
